A study of Mus musculus with 12 samples.

Results

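Interferon-stimulated genes are transcribed when a cell senses interferon or viral nucleic acid. A fixed set of 44 such genes was looked up by symbol in the count table of an RNA-seq study of mouse bone marrow progenitors, and all 44 were found among its 41128 genes. The rule names the genes and uses no measured value, but the names were chosen with earlier results of these data known. The cells were PreMegEs, bipotent progenitors of megakaryocytes and erythroid cells, sorted from adult C57BL/6 mice of 12 to 16 weeks as lineage-negative, Sca1-negative, cKit-positive cells with further gates on CD41, SLAMF1, CD16/32 and Endoglin. There were 12 libraries in 4 groups of 3, each library made from the pooled cells of 3 mice.

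The WT group came from wild type mice. The P2- and P2+ groups came from reporter mice of the genotype Runx1 P1-GFP::P2-hCD4/+, which carry on 1 allele a GFP reporter at the distal Runx1 promoter P1 and a truncated human CD4 reporter at the proximal promoter P2. PreMegEs of these mice that expressed GFP were separated by the hCD4 reporter into P2- and P2+ cells, so both groups share the reporter allele and differ in P2 activity. The KO group had the genotype RUNX1C knockout, in which the P1-driven isoform is missing and the P2-driven isoform RUNX1B is still made. P2+ against P2- therefore compares PreMegEs with and without P2 activity, KO against WT compares PreMegEs without and with RUNX1C, and P2+ against WT and P2- against WT place each sorted fraction beside the unsplit population. The last 2 also differ in genotype, since WT mice lack the knock-in allele, and in the gate on GFP, so P2 activity, the reporter allele and that gate cannot be told apart in them. The paper's RUNX1C knockout mice carry a GFP reporter at P1 on both alleles. If the KO libraries came from such mice, the loss of RUNX1C and that knock-in cannot be told apart in KO against WT. Whether the KO libraries were prepared and sequenced together with the others was not given in the sources used here, so a batch and the genotype cannot be told apart.

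In the type I interferon response, the receptor activates the complex ISGF3, of which STAT2 and IRF9 are subunits, and this complex binds the interferon-stimulated response element (ISRE) in the promoters of its targets. IRF7 and IRF1 act on overlapping elements, and interferon gamma acts through the gamma-activated site (GAS). The products of the targets sense viral RNA, degrade or sequester it, modify proteins with ISG15, or present antigen. Many of these genes keep a basal level in unstimulated blood progenitors, and in hematopoietic stem cells interferon is known to drive cells out of quiescence.

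For promoters, RefSeq (GRCm38.p6) held an entry for 33 of the 44 members, from 250 bases before to 50 bases after the start. The ISRE core, spelled GAAANNGAAA and searched on both strands, was found in 16 of the 33 (48.5%), against 3.99% of all 27025 genes with an entry. The GAS core, TTCNNNGAA, which reads the same on both strands and was counted once per position, was found in 12 of 33 (36.4%), against 9.55% of all genes. The RUNX motif TGTGGT was found in 6 of 33 (18.2%), against 18.9% of all genes. The upstream 250 bases of the 4 members below are shown because 3 of them, Irf7, Oasl1 and Ifit2, differed in all 4 comparisons and the fourth, Irgm1, differed in 3 and holds ISRE matches. They are written 5′ to 3′ on the strand of the gene, with ISRE and GAS matches in capitals.
Irf7 chr7:141266425-141266674 (-): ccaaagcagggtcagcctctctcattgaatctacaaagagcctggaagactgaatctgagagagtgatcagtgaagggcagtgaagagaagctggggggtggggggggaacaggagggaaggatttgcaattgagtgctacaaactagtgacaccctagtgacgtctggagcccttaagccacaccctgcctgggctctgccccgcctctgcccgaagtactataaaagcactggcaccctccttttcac
Oasl1 chr5:114922990-114923239 (+): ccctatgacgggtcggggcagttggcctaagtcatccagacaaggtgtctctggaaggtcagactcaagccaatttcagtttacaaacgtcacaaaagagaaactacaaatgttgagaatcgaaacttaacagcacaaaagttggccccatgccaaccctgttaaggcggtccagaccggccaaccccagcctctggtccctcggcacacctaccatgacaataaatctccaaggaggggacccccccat
Ifit2 chr19:34550444-34550693 (+): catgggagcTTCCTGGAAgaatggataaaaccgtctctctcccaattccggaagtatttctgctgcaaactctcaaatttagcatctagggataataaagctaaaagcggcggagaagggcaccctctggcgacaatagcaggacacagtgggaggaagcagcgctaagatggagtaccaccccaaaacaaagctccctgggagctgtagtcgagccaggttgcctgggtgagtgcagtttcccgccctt
Irgm1 chr11:48871421-48871670 (-): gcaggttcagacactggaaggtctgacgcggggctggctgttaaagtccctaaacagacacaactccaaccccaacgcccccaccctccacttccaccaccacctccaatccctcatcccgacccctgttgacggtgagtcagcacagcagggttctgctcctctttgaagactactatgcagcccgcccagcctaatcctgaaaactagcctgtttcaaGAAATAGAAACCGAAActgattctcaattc
In this window Irgm1 held 2 overlapping ISRE matches at 30 to 21 and 24 to 15 bases before the start, and Ifit2 held a GAS match at 241 to 233 bases before the start of 1 of its 2 entries. The Irf7 and Oasl1 windows held neither set of letters, which says only that these spellings are not in these bases. Among the other members that differed somewhere, an ISRE match lay in the promoters of Oas3 (GAAAACGAAA), Stat2 (TTTCAGTTTC on the strand of the gene), Igtp (GAAACTGAAA), Gbp2 (TTTCACTTTC) and Bst2, which held 2 that overlap each other and of which the first also overlaps a GAS match.

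The libraries held between 10726098 and 14445026 counts assigned to genes. Values are given as CPM, counts relative to the size of the library with TMM scaling, and 3 counts, the limit that a count of 0 allows, corresponded to between 0.208 and 0.286 CPM, a limit that covers counting error only. Runx1 itself, counted over both promoters together, was at 658, 625 and 613 CPM in P2+ and at 213, 201 and 216 CPM in P2- PreMegEs. WT held 364, 388 and 358 CPM, and KO held 340, 382 and 358 CPM, which overlap. As both isoforms are counted together, these values check neither P2 activity nor the loss of RUNX1C directly. The gate genes Kit, Slamf1 and Eng were present in all libraries and Ly6a reached at most 3.96 CPM. The 13 immediate early genes summed to 13667 CPM in P2- replicate 2 and 9324 CPM in P2+ replicate 2, to 1316 CPM in WT replicate 3, and to between 204.6 and 609 CPM in the other 9 libraries.

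Levels of the members spanned a wide range. On a scale of CPM divided by exon length (RPKM, mean of the 12 libraries), the highest were Tap1 (44.8), Trim25 (41.0), Dtx3l (40.8), Bst2 (40.6) and Gbp7 (33.8), and the lowest were Mx2 (0.363), Mx1 (0.358) and Ifit3 (0.215). A member entered a comparison if 3 or more of the 6 libraries held it at 1 CPM or above. The quasi-likelihood test of edgeR was used, p-values were adjusted by Benjamini-Hochberg over all genes tested, and a member was called at an adjusted p under 0.05. Signed changes, and changes in parentheses with an SE or an adjusted p, are log2 fold changes, and p-values measure the spread between libraries of pooled mice. Ifit3 reached at most 11 counts in a library and was tested in no comparison, Mx2 was untested in both comparisons with P2+ and Mx1 in P2+ against P2-. Of the 44 members, 19 were called in at least 1 comparison, 8 in at least 2, 5 in at least 3 and 3 in all 4, and 25, Ifit3 among them, were called in none. The same counts over all genes were not made, so these have no background and only describe the list. Shares of all genes are given below for each comparison. The 19 include Mx1, whose only call is set aside below. Exons of 15 members overlap a gene on the other strand, and as the strand setting of the counting was not given, reads of the pair cannot be told apart there.

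**Figure D1:**
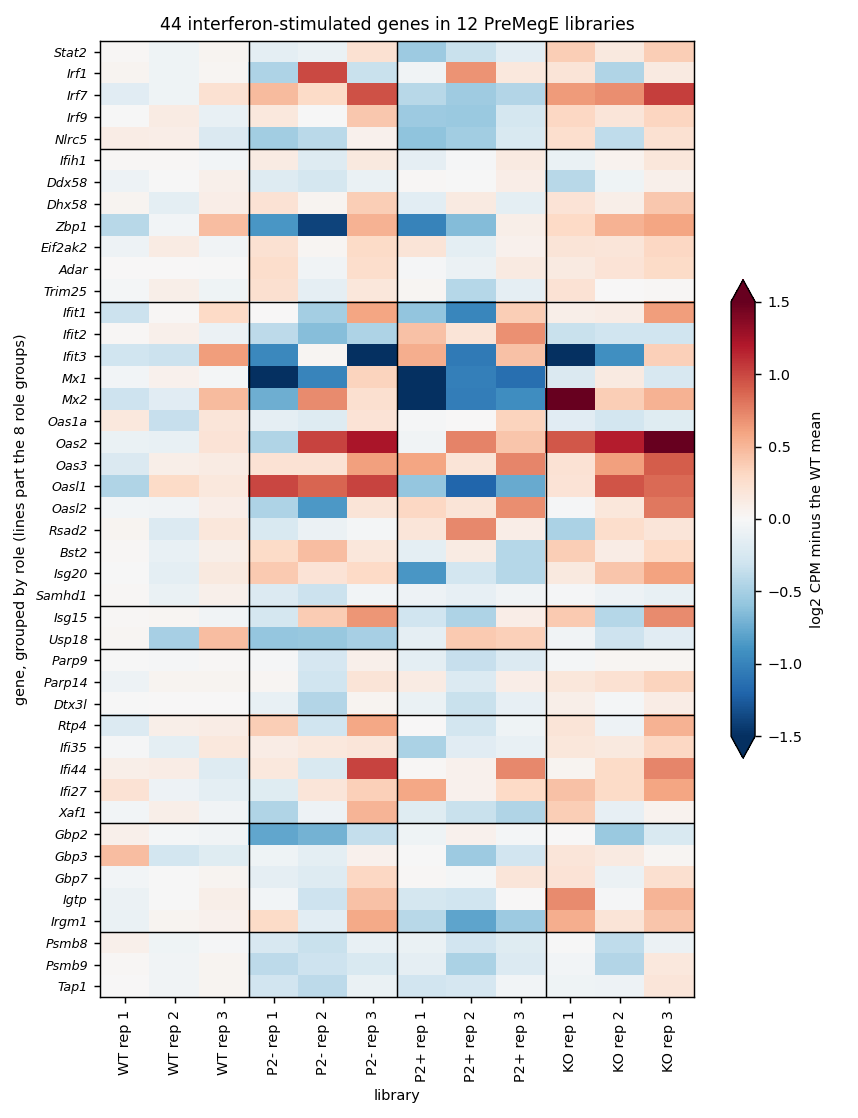
Log2 CPM minus the WT mean (color) of the 44 members (rows, with lines between the 8 role groups) in the 12 libraries (columns). Oasl1, Irf7, Irf9 and Irgm1 are lower in P2+ than in P2- columns, Oas2 and Irf7 are high in KO columns, Ifit2 runs the other way, and the P2- replicate 3 column is the highest of its group for 36 of 43 members.

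In PreMegEs with P2 activity (P2+ against P2-), 6 members fell and 4 rose, among 41 tested. Oasl1, Irf7, Irgm1, Isg20, Irf9 and Bst2 were lower in P2+, with Oasl1 at 0.286-fold and Irf7 at 0.479-fold of the P2- level. Ifit2, Usp18, Oasl2 and Gbp2 were higher, with Ifit2 at 1.93-fold. Across all 12836 genes tested, 17.0% were called lower and 20.1% higher, and the members' shares, 14.6% lower and 9.76% higher, were below that background. The median log2 fold change of the members was -0.14, against -0.02 over all genes, and 16 of the 41 were above 0.

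Without RUNX1C (KO against WT), 11 members rose and 1 fell, among 43 tested. Oas2 rose most, to 2.41-fold of WT, followed by Irf7 (1.73-fold), Oasl1 (1.60-fold) and Oas3 (1.51-fold), and Igtp, Isg20, Irgm1, Stat2, Irf9, Parp14 and Adar rose by less. Ifit2 was the member that fell, to 0.803-fold. Of all 12784 genes tested 6.18% were called higher and 8.76% lower, beside 25.6% and 2.33% of the members. The members' median was 0.20 on the log2 scale, against -0.003 over all genes, and 33 of 43 lay above 0. The number called depended on the libraries in the fit: in a fit of all 12 libraries with 1 shared spread 2 members were called, Irf7 and Oas2, and without KO replicate 3 there were 4 and without WT replicate 1 there were 6. Shares of all genes in these refits are not set beside the counts, so nothing particular to the members is read from them.

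Compared with unsplit WT PreMegEs (P2+ against WT), 6 members fell in P2+ (Mx1, Oasl1, Irgm1, Irf7, Nlrc5 and Irf9) and 2 rose (Oas3 and Ifit2), among 42 tested. Of all 12941 genes, 7.07% were lower and 9.45% higher, beside 14.3% and 4.76% of the members, whose median log2 fold change was -0.15 (all genes 0.002). Mx1 is counted in the 42 tested, the 6 falls and the 14.3%. It passed the filter through its WT libraries alone, as no P2+ library reached 1 CPM. A difference was thus a condition of its being tested, and nothing is read from its fall. The other 5 falls do not rest on it. The number called was 1 without WT replicate 2, 3 without either of the other WT replicates, 4 without P2+ replicate 1 or P2+ replicate 3, and 5 in the fit of all 12 libraries. Irgm1 was called in all of these. The shares of all genes above belong to the main fit, so these refit counts only describe the members.

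In the fraction without P2 activity (P2- against WT), 2 members rose (Oasl1 and Irf7) and 3 fell (Gbp2, Ifit2 and Psmb9), among 43 tested. Of all 12767 genes, 6.85% were higher and 9.60% lower, beside 4.65% and 6.98% of the members, and the median was 0.06 (all genes 0.01). The number called was 8 without P2- replicate 2, the library with the highest immediate early genes, 2 without WT replicate 1 and 3 without WT replicate 2. As the shares of all genes are those of the main fit, nothing particular to the members is read from these counts. Oasl1 and Ifit2 kept their calls, at any size of change, in all refits. P2+ against WT and P2- against WT share the WT libraries and each shares a group with P2+ against P2-, so their values are given side by side and are not independent of each other.

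Within the 2 reporter groups, libraries of the same number deviated together over all genes, and a fit with the replicate number as a block called 16 members in P2+ against P2- in place of 10, with 10 lower and 6 higher. It kept the 10 and added Stat2 (-0.34, adjusted p = 0.00340), Trim25 (-0.27, adjusted p = 0.00109), Ifi35 (-0.40, adjusted p = 0.0170) and Ifit1 (-0.42, adjusted p = 0.0362) as lower, and Rsad2 (0.45, adjusted p = 0.00901) and Ddx58 (0.23, adjusted p = 0.0206) as higher, all on the log2 scale. In that fit 24.8% of all genes were called lower and 25.9% higher, so the members' counts rose with the background. Without both libraries high in immediate early genes, P2+ replicate 2 and P2- replicate 2, 11 members were called, 9 of them among the 10.

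Markers of the lineages moved with the groups, and fewer cells of a type and less RNA per cell cannot be told apart in these sorted, pooled libraries. The 11 erythroid markers summed to between 5803 and 6652 CPM in P2- and between 1300.5 and 1474 CPM in P2+ libraries, and 9 of the 10 tested were lower in P2+. The 10 megakaryocyte markers summed to between 227 and 317 CPM in P2- and between 1285 and 1821 CPM in P2+. In KO libraries the erythroid sum was between 5619 and 6327 CPM, against 3319 to 3826 CPM in WT, and the megakaryocyte sum was between 509 and 577 CPM, against 816 to 930 CPM in WT. Neutrophil and monocyte markers (79.2 to 127.5 CPM in KO, 177 to 307 CPM in WT) and lymphoid markers (138 to 147 CPM in KO, 266 to 294 CPM in WT) were also lower in KO, and dendritic markers stayed between 1.5 and 15.6 CPM. Between P2- and P2+, stem cell markers (336 to 383 and 1018 to 1167 CPM), mast and basophil markers (24.4 to 28.2 and 84.3 to 137 CPM), neutrophil and monocyte markers (64.0 to 164 and 313 to 438 CPM) and lymphoid markers (107 to 142 and 212 to 311 CPM) were all higher in P2+. In KO, stem cell markers were at 432 to 480 CPM, against 656 to 675 CPM in WT, and mast and basophil markers at 47.4 to 64.1 CPM, against 28.0 to 48.0 CPM. The part of these markers in the values of the members was not tested.

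Among the transcription regulators, Irf7, the interferon-induced factor that amplifies the response (chr7:141262706-141266481), was at 33.5, 29.4 and 46.7 CPM in P2- and at 18.0, 16.6 and 17.8 CPM in P2+ libraries. It was at 21.5, 23.1 and 28.2 CPM in WT and at 37.5, 39.2 and 49.5 CPM in KO. Every P2+ library lay below every WT library, and every P2- and KO library above them. The log2 fold change was -1.06 in P2+ against P2- (SE 0.17, adjusted p = 0.00149), 0.79 in KO against WT (SE 0.13, adjusted p = 3.87e-04), -0.47 in P2+ against WT (SE 0.14, adjusted p = 0.0466) and 0.61 in P2- against WT (SE 0.18, adjusted p = 0.0408). The first 2 stayed under the adjusted p threshold in all refits, though the KO change is under 2-fold. The call in P2+ against WT was lost without any 1 of its 6 libraries, with all 12 libraries and with the replicate block. That in P2- against WT was lost without scaling and without WT replicate 1, WT replicate 2, P2- replicate 1 or P2- replicate 3. The Irf7 gene overlaps exons of Phrf1 on the other strand by 45 bases.

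Irf9, the DNA-binding subunit of ISGF3 (chr14:55603571-55610030), was at 108, 96.3 and 128 CPM in P2- and 66.3, 65.4 and 80.6 CPM in P2+. In WT it was at 96.1, 105 and 89.5 CPM, and in KO at 120, 109 and 121 CPM. P2+ libraries were the lowest and KO libraries lay above WT, whereas P2- overlapped WT. Irf9 fell by 0.64 on the log2 scale in P2+ against P2- (SE 0.12, adjusted p = 0.00343) and by 0.45 in P2+ against WT (SE 0.10, adjusted p = 0.0131, lost without WT replicate 2), and rose by 0.26 in KO (SE 0.08, adjusted p = 0.0253), a call lost with all 12 libraries and without any of 4 single libraries. Its exons overlap Rnf31 on the same strand.

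Stat2, the other ISGF3 subunit in the list, was at 77.0, 66.2 and 77.2 CPM in KO and at 60.5, 57.2 and 61.7 CPM in WT, without overlap. It was at 53.8, 55.7 and 70.3 CPM in P2- and at 40.8, 47.4 and 53.7 CPM in P2+. The KO rise was 0.29 on the log2 scale (SE 0.08, adjusted p = 0.0263) and was lost with all 12 libraries and without any of 4 single libraries, and P2+ against P2- gave -0.34 (adjusted p = 0.0891) without the block. Nlrc5, the transactivator of MHC class I genes, was at 59.5, 63.1 and 77.0 CPM in P2+ and 98.2, 97.4 and 77.8 CPM in WT, a fall of 0.45 on the log2 scale (SE 0.12, adjusted p = 0.0279) lost without any of 3 single libraries. The highest P2+ library lay just under the lowest WT library.

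Irf1, a factor induced by interferon gamma and by other stimuli, was called in no comparison. It was at 27.0, 74.1 and 29.6 CPM in P2- and at 35.9, 59.7 and 41.6 CPM in P2+, at 38.3, 35.6 and 38.0 CPM in WT and at 42.7, 27.2 and 41.0 CPM in KO. The 2 highest values were those of the 2 libraries high in immediate early genes. With them the P2+ against P2- log2 fold change was 0.08 (SE 0.37, adjusted p = 0.890), and without both it was 0.48 (SE 0.14, adjusted p = 0.0157). Against WT, P2- gave 0.23 with all libraries and -0.40 without P2- replicate 2 (adjusted p = 0.0375). The part of the immediate early genes in the Irf1 values was not tested further.

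**Figure D2:**
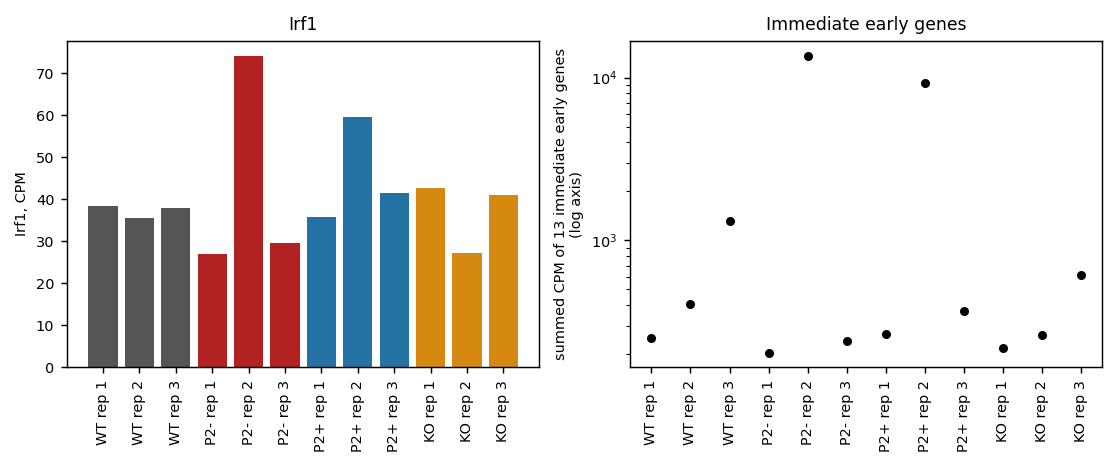
Irf1 in CPM (left, bars from 0, 1 per library) and the summed CPM of 13 immediate early genes (right, log axis) in the 12 libraries. P2- replicate 2 and P2+ replicate 2 have the highest Irf1, 74.1 and 59.7 CPM, and the highest immediate early sums, 13667 and 9324 CPM.

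Among the antiviral effectors, the oligoadenylate synthetases (OAS) make the second messenger that activates RNase L, and Oasl1 and Oasl2 are related proteins. Oasl1, known to restrain translation of Irf7 (chr5:114923240-114937915), was at 22.8, 20.8 and 23.0 CPM in P2- and at 7.54, 4.86 and 6.63 CPM in P2+, the largest log2 fold change of a member in that comparison. It was at 8.26, 13.8 and 12.7 CPM in WT and at 13.1, 21.9 and 20.6 CPM in KO. P2- lay above and P2+ below all WT libraries, and the lowest KO library overlapped WT. The log2 fold change was -1.81 in P2+ against P2- (SE 0.19, adjusted p = 1.32e-04), -0.87 in P2+ against WT (SE 0.25, adjusted p = 0.0398), 0.95 in P2- against WT (SE 0.19, adjusted p = 0.00791) and 0.68 in KO against WT (SE 0.21, adjusted p = 0.0367). The KO call was lost with all 12 libraries and without WT replicate 1, KO replicate 2 or KO replicate 3, and that in P2+ against WT with the replicate block and without WT replicate 2, WT replicate 3, P2+ replicate 2 or P2+ replicate 3 (adjusted p up to 0.155).

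Oas2 (chr5:120730333-120749853) was at 16.1, 19.0 and 25.8 CPM in KO and at 7.78, 7.72 and 9.63 CPM in WT. Its log2 fold change of 1.27 (SE 0.19, adjusted p = 1.24e-04) was the largest of the members in that comparison and held in all alternatives run, a 2-fold minimum included. In P2- it was at 6.04, 17.0 and 19.7 CPM and in P2+ at 8.04, 14.0 and 11.1 CPM, so that the reporter groups overlapped each other and P2- replicate 1 stood apart from its group.

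Oas3 was at 29.1, 38.3 and 46.7 CPM in KO, 37.4, 28.4 and 41.5 CPM in P2+, 29.0, 29.0 and 38.2 CPM in P2- and 21.4, 26.5 and 27.1 CPM in WT. WT libraries were the lowest, below every library of the other groups. It was called in KO (0.60, SE 0.15, adjusted p = 0.0103, lost without KO replicate 3 and with all 12 libraries) and in P2+ against WT (0.52, SE 0.16, adjusted p = 0.0475, lost under 8 of 13 alternatives), and P2- against WT gave 0.37 (adjusted p = 0.118). Oasl2 was at 37.8, 34.9 and 49.3 CPM in P2+ and 21.9, 16.7 and 34.7 CPM in P2-, a rise of 0.73 on the log2 scale (SE 0.25, adjusted p = 0.0452) whose nearest libraries, at 34.9 and 34.7 CPM, almost touched, and which was lost without any of 4 single libraries. Oasl1 and Oasl2 thus differed in opposite directions between the same libraries. Oas1a, another of the synthetases, was at 7.72 to 12.4 CPM in all 12 libraries and was called nowhere.

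Of the other effectors, Ifit2, a tetratricopeptide protein that binds viral RNA (chr19:34550694-34576419), ran opposite to Irf7 in every comparison. It was at 122, 103 and 145 CPM in P2+, 68.7, 58.1 and 65.7 CPM in P2-, 91.5, 94.8 and 84.7 CPM in WT and 71.5, 73.6 and 73.4 CPM in KO. P2+ lay above and P2- and KO below all WT libraries. The log2 fold change was 0.95 in P2+ against P2- (SE 0.13, adjusted p = 5.02e-04), 0.46 in P2+ against WT (SE 0.11, adjusted p = 0.0207), -0.48 in P2- against WT (SE 0.09, adjusted p = 0.00489) and -0.32 in KO against WT (SE 0.07, adjusted p = 0.00654). The call in P2+ against WT was lost without any 1 WT library or P2+ replicate 3 (adjusted p up to 0.0821), and the KO call with all 12 libraries (adjusted p = 0.0661). Its neighbor Ifit1 was at 7.50 to 23.2 CPM, overlapped in every comparison and was called in none without the block. Ifit3 stayed at or below 0.802 CPM, and as near-identical Ifit3 copies exist in the mouse genome its counts are uncertain.

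Isg20, an RNA exonuclease, was at 32.0, 28.2 and 30.1 CPM in P2- and at 13.2, 20.1 and 18.1 CPM in P2+, a fall of 0.81 on the log2 scale (SE 0.16, adjusted p = 0.00450). It was at 27.0, 32.6 and 37.2 CPM in KO and at 24.4, 22.0 and 27.1 CPM in WT, a rise of 0.39 (SE 0.13, adjusted p = 0.0479) in which the nearest libraries overlapped and which was lost without any of 4 single libraries. Bst2, tetherin, which holds budding virus at the cell surface, was at 40.9, 46.4 and 38.0 CPM in P2- and 30.5, 36.5 and 25.0 CPM in P2+ (-0.44, SE 0.15, adjusted p = 0.0465). That call was lost without any of 5 single libraries and without scaling. Samhd1, which depletes nucleotides needed for reverse transcription, was the effector of highest mean CPM and was called nowhere. It was at 128, 118 and 133 CPM in WT, 109, 101 and 122 CPM in P2-, 120, 116 and 121 CPM in P2+ and 125, 119 and 117 CPM in KO.

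Mx1 and Mx2, GTPases that block viral replication, were near the detection limit. Mx1 was at 1.81, 1.95 and 1.82 CPM in WT and at 0.335, 0.833 and 0.762 CPM in P2+, a fall of 1.49 on the log2 scale (SE 0.46, adjusted p = 0.0486) that DESeq2's Wald test did not call (adjusted p = 0.0712) and that stands as a description, since the gene entered this comparison only through WT. In P2- Mx1 was at 0.318, 0.858 and 2.39 CPM and in KO at 1.57, 2.06 and 1.55 CPM. Mx2, annotated as a polymorphic pseudogene in this strain's reference, was at 0.251 to 3.58 CPM. Rsad2, viperin, was at 27.9 to 43.1 CPM in P2+ and 22.3 to 25.6 CPM in P2- without overlap (0.48, adjusted p = 0.0537 without the block).

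Among the sensors and their regulators, 1 of 7 members was called without the block, Adar in KO, where 6.18% of all genes were called higher. Ifih1 (MDA5), Ddx58 (RIG-I) and Dhx58 (LGP2) were called nowhere without the block, nor were Zbp1, a sensor of Z-form nucleic acid, Eif2ak2, the kinase PKR, and Trim25, the ubiquitin ligase of RIG-I. Trim25, the sensor-group member with the highest CPM, was at 230, 250 and 225 CPM in WT, 277, 214 and 265 CPM in P2-, 239, 175 and 213 CPM in P2+ and 272, 236 and 237 CPM in KO, all overlapping as groups. Within each pair of same-numbered libraries, Trim25 was lower in P2+ than in P2-. With the block, Trim25 was called lower and Ddx58 higher in P2+ against P2-, as given above. Adar, the RNA-editing enzyme that masks self RNA, was at 160, 167 and 177 CPM in KO and 146, 145 and 145 CPM in WT, a rise of 0.20 on the log2 scale (SE 0.06, adjusted p = 0.0400) that was lost without any of 5 single libraries. Adar overlaps Chrnb2 on the other strand by 1365 bases.

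Isg15, the ubiquitin-like modifier, was at 7.64, 7.72 and 7.29 CPM in WT, 6.28, 9.91 and 12.0 CPM in P2-, 6.11, 5.42 and 8.08 CPM in P2+ and 9.95, 5.57 and 12.5 CPM in KO, and was called nowhere. Usp18, the protease that removes ISG15 and damps receptor signaling, was at 4.19, 6.11 and 5.94 CPM in P2+ and 3.02, 3.05 and 3.23 CPM in P2- (0.81, SE 0.26, adjusted p = 0.0364), a call lost without any of 5 single libraries. Both rest on few reads, between 65 and 171 counts a library for Isg15 and between 32 and 88 for Usp18. Parp14, an ADP-ribosyltransferase, was at 134, 140 and 151 CPM in KO and 114, 123 and 123 CPM in WT (0.24, SE 0.07, adjusted p = 0.0286), a call lost without any of 3 single libraries. Its partners in the list, Parp9 and the ubiquitin ligase Dtx3l, which form a complex, were called nowhere: Dtx3l was at 243, 246 and 245 CPM in WT and 259, 239 and 264 CPM in KO, with 227, 180 and 251 CPM in P2- and 228, 195 and 225 CPM in P2+.

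Among the interferon-induced GTPases, Irgm1, an immunity-related GTPase of autophagy and of stem cell maintenance under interferon (chr11:48861968-48871683), was at 193, 142 and 234 CPM in P2- and 118, 91.2 and 108 CPM in P2+. WT held 147, 162 and 165 CPM and KO held 231, 181 and 211 CPM. P2+ was the lowest group without overlap and KO lay above WT, while P2- spread across both. Irgm1 fell by 0.83 on the log2 scale in P2+ against P2- (SE 0.17, adjusted p = 0.00483) and by 0.57 against WT (SE 0.10, adjusted p = 0.00357), and rose by 0.39 in KO (SE 0.08, adjusted p = 0.00290, lost with all 12 libraries). Its relative Igtp was at 82.3, 49.9 and 71.7 CPM in KO and 47.6, 50.1 and 53.8 CPM in WT, a rise of 0.42 (SE 0.13, adjusted p = 0.0385) with overlap that was lost without any of 4 single libraries, and its exons overlap Irgm2 on the same strand.

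Gbp2, a guanylate-binding protein that attacks vacuoles of pathogens, was at 19.7, 20.7 and 26.4 CPM in P2-, below all libraries of P2+ (32.6, 35.5 and 33.1 CPM) and WT (35.9, 33.2 and 32.8 CPM). KO libraries were spread between, at 34.0, 23.0 and 29.0 CPM. P2+ rose against P2- by 0.60 on the log2 scale (SE 0.13, adjusted p = 0.00755), and P2- fell by 0.59 against WT (SE 0.13, adjusted p = 0.0138, lost without WT replicate 1). Gbp2 was thus low in 1 fraction, and Gbp3 and Gbp7 were called nowhere. Gbp7, the GTPase of highest CPM, was at 179, 183 and 189 CPM in WT, 167, 161 and 228 CPM in P2-, 185, 179 and 208 CPM in P2+ and 212, 172 and 216 CPM in KO.

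In antigen processing, Psmb9, an immunoproteasome subunit, was at 43.5, 45.9 and 48.7 CPM in P2- and 57.8, 55.0 and 58.9 CPM in WT, a fall of 0.30 on the log2 scale (SE 0.08, adjusted p = 0.0355) that was lost with edgeR's exact test (adjusted p = 0.0534), with all 12 libraries, with the replicate block and without any of 5 single libraries. Tap1, the peptide transporter, was at 217, 200 and 246 CPM in P2-, 216, 221 and 256 CPM in P2+, 265, 255 and 272 CPM in WT and 252, 249 and 299 CPM in KO, and neither it nor Psmb8, another immunoproteasome subunit, was called. For P2- against WT, Tap1 gave -0.24 (adjusted p = 0.0859) and Psmb8 -0.22 (adjusted p = 0.0999), with no overlap between the groups in either. Psmb9 and Tap1 overlap each other on opposite strands by 212 bases. The other interferon-induced proteins, Ifi35, Ifi44, Ifi27, Rtp4 and the apoptosis-related Xaf1, were called nowhere without the block. Ifi35, the highest of them in CPM, was at 15.5, 19.1 and 20.0 CPM in P2+ and 23.3, 24.1 and 24.5 CPM in P2- (-0.39, adjusted p = 0.0511), and at 21.3, 19.4 and 24.1 CPM in WT and 24.2, 23.9 and 26.8 CPM in KO.

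**Figure D3:**
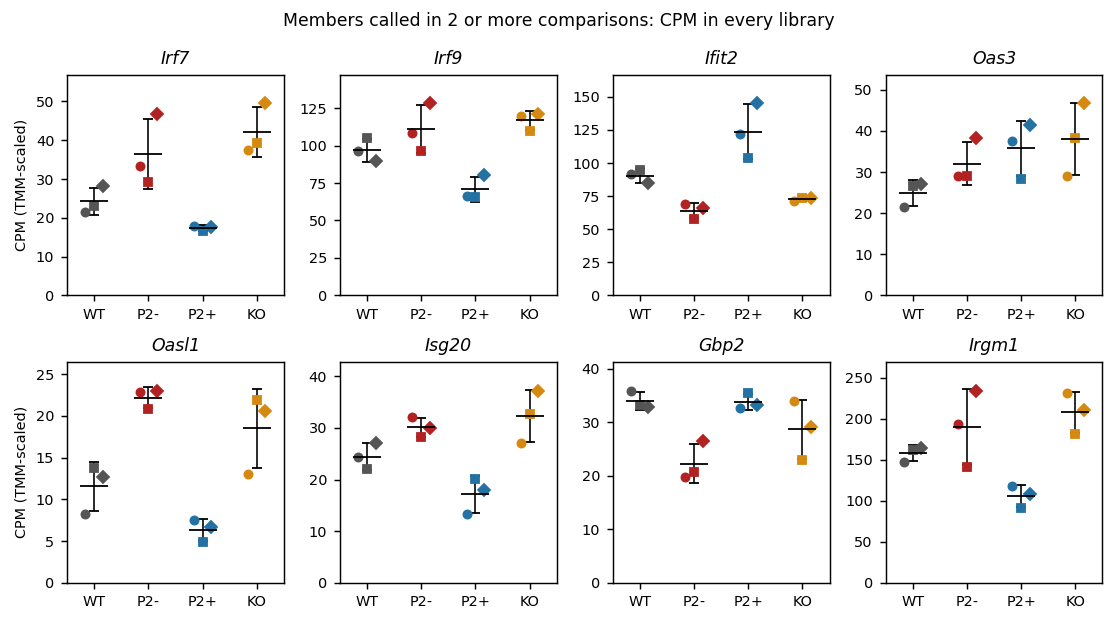
CPM in every library (circle, square and diamond for replicates 1, 2 and 3) of the 8 members called in at least 2 comparisons, with the mean as a horizontal line and the SD as bars (n = 3). Irf7, Irf9, Oasl1, Isg20 and Irgm1 are lowest in P2+, Ifit2 is highest in P2+, Gbp2 is lowest in P2-, and Oas3 is lowest in WT.

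P2+ against P2- and KO against WT use different libraries, and their values can be set side by side. Of the 41 members tested in both, 34 (82.9%) differed in opposite directions, 25 of them lower in P2+ and higher in KO and 9 the other way round. Over all 12591 genes tested in both comparisons the share was 70.2%, so most genes differed in opposite directions too. Across genes, which are not independent replicates, Pearson's r between the 2 log2 fold changes was -0.59 over the members and -0.53 over all genes. The 6 members called in both, Irf7, Irf9, Oasl1, Isg20, Irgm1 and Ifit2, all had opposite signs, as did 94.7% of the 1373 genes called in both over the whole table, so this is near the background. Oas3 and Oasl2 were positive in both, at 0.16 and 0.60 for Oas3 and 0.73 and 0.34 for Oasl2, with 1 of the 2 values called in each.

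**Figure D4:**
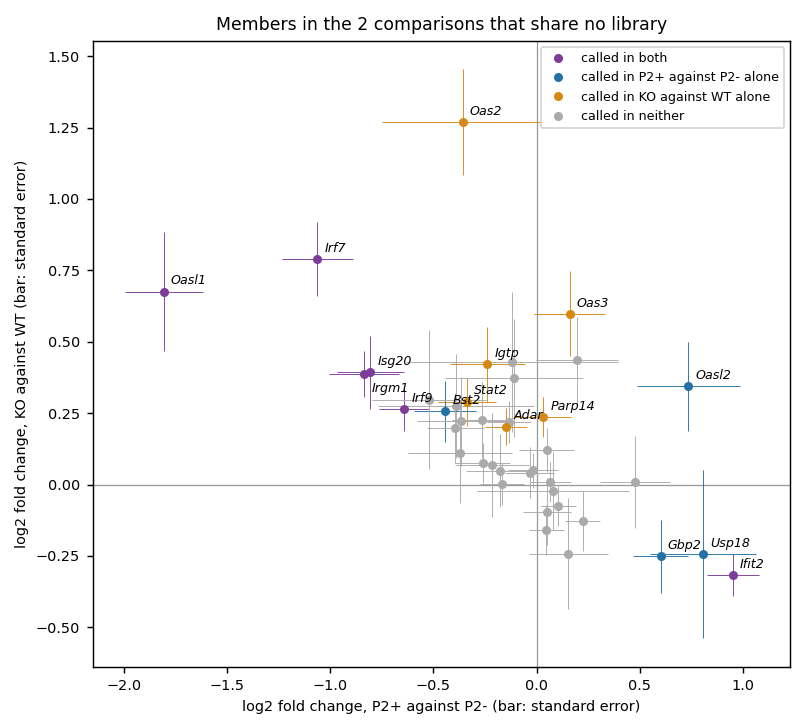
Log2 fold change of each member in P2+ against P2- (x axis) and in KO against WT (y axis), with standard errors as bars and color for where the member was called. Irf7, Irf9, Oasl1, Isg20 and Irgm1 lie at the upper left, Ifit2 at the lower right, and Oas2, at 1.27 in KO, stands above the rest.

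As a score, the mean log2 CPM over the 43 members with at least 1 CPM in at least 3 libraries was 5.05 ± 0.0556 in WT, 5.05 ± 0.223 in P2-, 4.89 ± 0.105 in P2+ and 5.24 ± 0.121 in KO (SD, n = 3). The lowest KO library (5.13) lay above the highest WT library (5.11), and P2+ and P2- overlapped as groups. Within the pairs of same-numbered libraries, P2+ was below P2- in all 3, at 4.82 and 4.91 in pair 1, 4.84 and 4.92 in pair 2 and 5.01 and 5.30 in pair 3. The summed CPM of all 44 members was 2725 ± 25.4 in WT, 2705 ± 336 in P2-, 2528 ± 171 in P2+ and 2983 ± 212 in KO, with 39.3% to 39.8% of it from the 5 members of highest CPM. The score differed by 0.20 between KO and WT, by -0.16 between P2+ and P2- and between P2+ and WT, and by -0.001 between P2- and WT. The same mean over all 13288 genes that met this filter differed by -0.06 between KO and WT, 0.11 between P2+ and P2-, 0.001 between P2+ and WT and -0.11 between P2- and WT. Without P2- replicate 3 the difference between P2+ and P2- was -0.03, without the whole of pair 3, an alternative chosen after seeing the data, it was -0.09, and without P2- replicate 3 that between P2- and WT was -0.13.

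In P2-, most members were highest in the same library. P2- replicate 3 had the highest value of its group for 36 of the 43 members (83.7%), against 30.9% of all genes, and its score was 5.30, beside 4.91 and 4.92 in the other 2. KO replicate 3 and WT replicate 3 were each highest for 24 members (55.8%), against 32.8% and 34.9% of all genes, and P2+ replicate 3 for 20 (46.5%), against 32.4%. Whether libraries numbered 3 shared a day was not given, nor whether those of P2- and P2+ came from the same mice. The WT and KO libraries came from mice of other genotypes.

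**Figure D5:**
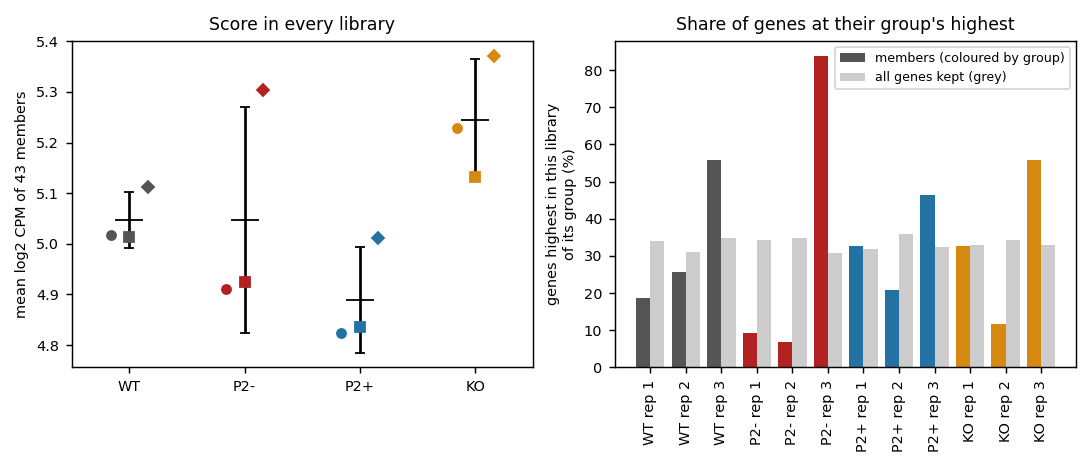
Left, the mean log2 CPM of 43 members in each library (circle, square and diamond for replicates 1, 2 and 3), with the group mean and SD (n = 3); the axis does not start at 0. Right, the share of genes (%) whose highest value in the group is in that library, colored for members and grey for all genes: P2- replicate 3 stands at 83.7% for members and 30.9% for all genes.

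Counted by groups that do not overlap, 11 members had all KO libraries above all WT libraries and 1 below, of 43. Among all genes the shares were 15.4% above and 16.2% below, beside the 6.18% and 8.76% called. In P2+ against WT 13 members lay below and 3 above, of 42, with all genes at 17.5% and 18.0%. The 13 include Mx1, which was tested only through its WT libraries and from which nothing is read. P2+ against P2- gave 8 below and 6 above of 41 (all genes 24.6% and 25.4%), and P2- against WT 6 below and 5 above of 43 (all genes 18.6% and 16.0%). These counts include members that did not pass the test, such as Dtx3l, Parp9 and Psmb8 in P2+ against WT.

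The genes upstream of the set were read from a list of 50. None of the 9 interferon genes among the ligands reached 1 CPM in a library, and 2 counts of Ifng in WT replicate 3 were all that was seen of them at this depth. The list leaves out other interferon genes, most of the Ifna family among them. Among the receptors, Ifngr1 was at 161, 185 and 155 CPM in P2+ and 463, 378 and 440 CPM in P2-, a fall of 1.35 on the log2 scale (SE 0.10, adjusted p = 1.91e-05), and it fell by 1.17 against WT (373, 357 and 402 CPM). Ifngr2, the second chain of the interferon gamma receptor, rose in KO (0.67, SE 0.14, adjusted p = 0.00308) and in P2- against WT (0.55, SE 0.16, adjusted p = 0.0394). P2+ PreMegEs thus had the lowest Ifngr1, while in KO, at 329, 392 and 359 CPM, Ifngr1 overlapped WT.

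Of 37 upstream genes tested in P2+ against P2-, 9 were higher (24.3%, all genes 20.1%) and 7 lower (18.9%, all genes 17.0%), shares near the background, the former led by the sensors Tlr3 (log2 fold change 2.71) and Tmem173 (2.29, STING) and the factor Irf5 (2.13), the latter by Ifngr1, Mavs (-0.60), the adaptor of RNA sensing, and Irf3 (-0.54). Tlr3 was at 0.281 to 0.557 CPM in P2- and 1.46 to 4.34 CPM in P2+, near the limit of detection in P2-. It passed the filter through P2+ alone, so its rise is given as a description, and it is counted in the 9. In KO against WT 5 of 36 were higher (13.9%, all genes 6.18%) and 2 lower (5.56%, all genes 8.76%). Among the former were Ifngr2 and Mavs (0.43), and Tmem173 (-1.54) and Aim2 (-0.66) fell. Of the 5 receptor genes tested 3 were higher in KO, with Ifnar2 (0.31, adjusted p = 0.0122) and Il10rb (0.29, adjusted p = 0.0334), named here after their values were seen, beside Ifngr2. Ifnar2, Il10rb and Ifngr2 lie close together on chromosome 16, from positions 91372783, 91406164 and 91547072. Runx1, the locus altered in KO, lies on the same chromosome at 92601466 to 92826149. The part of this position in their values was not tested.

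Against WT, P2+ had 5 of 37 upstream genes higher (13.5%, all genes 9.45%; led by the inhibitors Socs3 at 2.76 and Socs1 at 1.37 and by Nlrx1 at 0.56) and 6 lower (16.2%, all genes 7.07%; led by Ifngr1, Aim2 at -0.83 and Mavs at -0.43). Socs3 was at 54.2 CPM in P2+ replicate 2, the library high in immediate early genes, and at 6.45 and 4.72 CPM in the other 2. In P2- against WT 1 of 36 was higher, Ifngr2 (2.78%, all genes 6.85%), and 5 were lower (13.9%, all genes 9.60%), led by Tmem173 (-1.85), Irf8 (-1.75) and Irf5 (-1.32). Irf8 and Irf5 are factors of myeloid and dendritic cells, and the neutrophil and monocyte markers summed to 64.0 to 164 CPM in P2- and 177 to 307 CPM in WT. The part of these markers in the values of Irf8 and Irf5 was not tested.

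A second list held 72 interferon-induced genes outside the set. In P2+ against P2-, 16 of 60 tested were higher (26.7%, all genes 20.1%) and 9 lower (15.0%, all genes 17.0%), with a median log2 fold change of 0.08: Slfn2 (log2 fold change 2.24), Oas1g (2.08) and Epsti1 (1.65) rose most and Psme2 (-1.34), Lgals1 (-1.20) and Cmpk2 (-1.03) fell most. Oas1g passed the filter through P2+ alone, so its rise is given as a description, and it is counted in the 16. In KO against WT, 8 of 59 were higher (13.6%, all genes 6.18%), led by Oas1b (0.79), Lgals9 (0.62) and Rnf213 (0.54), and 5 lower (8.47%, all genes 8.76%), led by Ifi30 (-0.87), Lgals1 (-0.78) and Tor3a (-0.56), with a median of 0.06. In P2+ against WT, 9 of 60 were higher (15.0%, all genes 9.45%), led by Ly6a (1.53), Slfn2 (1.37) and Cd274 (0.81), and 5 lower (8.33%, all genes 7.07%), led by Lgals1 (-1.24), Cmpk2 (-0.76) and Trim21 (-0.52). Ly6a encodes Sca1, for which the cells were sorted negative, and it was low in all libraries, as given above. In P2- against WT, 4 of 58 were higher (6.90%, all genes 6.85%), Lgals9 (0.49), Daxx (0.49) and Rnf213 (0.46) most, and 9 lower (15.5%, all genes 9.60%), Ifi203 (-0.86), Epsti1 (-0.84) and Cd274 (-0.72) most.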

How the data were processed

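RNA-seq libraries (poly(A), strand-specific, 75 bp paired reads) were made from PreMegEs in 4 groups of 3 libraries. The authors aligned reads to GRCm38 with Bowtie2 (2.21 in the submitters' processing notes), assigned them to the genes of Ensembl by featureCounts, and deposited whole-number counts per gene without normalization. The strand setting and the handling of reads with several alignments were not given in the sources used here. Both can change the counts of overlapping genes and of near-identical copies.

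From the counts, CPM were computed with TMM scaling, and the tests were run in R 4.3.3 with edgeR 4.0.16 (quasi-likelihood test, 2-sided, 6 libraries a comparison, at least 1 CPM in at least 3, Benjamini-Hochberg adjustment over all genes tested). The paper's methods state edgeR's exact test with a 2-fold minimum, and both were run as alternatives, with DESeq2 1.42.0, other scalings and filters, all 12 libraries, a replicate block and each library left out. The score is the mean log2 CPM with a prior count of 2 and was not tested. SE is the log2 fold change divided by the square root of F. The scripts were tested on simulated counts. The members and lists were chosen with earlier results of these data known. All members are named. Values in every library are given for the called members of largest change (up to 6 in each direction) in each comparison, the member of highest CPM in each of 8 role groups, Irf7, Irf9, Stat2 and Irf1; from the lists, the 3 called genes of largest change in each direction, except for 1 result that is not reported here. Nothing in the labels says what a replicate number marks; the deviations of P2+ and P2- libraries of the same number from their group means correlated over 12836 genes (r = 0.402, 0.591 and 0.432), so these were read as pairs from the data. Exon positions came from GENCODE vM21 and promoters from RefSeq.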

Additional observations from a re-analysis of the deposited data

How the results depend on the processing

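Each of the 35 calls of a member in a comparison was repeated in refits with other scalings, tools, filters and samples, 462 values in all (the 2-fold minimum, which changes the threshold and not the fit, is given apart), of which 353 kept the call, 109 lost it and 0 changed sign. The calls kept in all refits were Irf7, Irf9, Ifit2, Oasl1, Isg20, Gbp2 and Irgm1 in P2+ against P2-, Irgm1 in P2+ against WT, Ifit2 and Oasl1 in P2- against WT, and Irf7 and Oas2 in KO against WT. With a 2-fold minimum the members called were 2 (P2+ against P2-), 1 (P2+ against WT), 0 (P2- against WT, where edgeR gave 10 members an unadjusted p under 0.05 and DESeq2 called 6 at any size) and 1 (KO against WT). The 1 in P2+ against WT was Mx1, which was tested only through its WT libraries and from which nothing is read. In 1 fit of all 12 libraries, 5 were called in P2+ against WT and 2 in KO against WT. With the replicate block, 16 were called in P2+ against P2- and 3 in P2+ against WT, where the numbers did not pair the libraries (r between -0.0315 and 0.185). The block changed no other count by over 1.5 times. With 1 library left out, the counts were 8 to 9 in P2+ against P2-, 1 to 8 in P2+ against WT, 2 to 8 in P2- against WT and 4 to 10 in KO against WT, and 11 in P2+ against P2- without both replicates 2, an alternative chosen after seeing the data. Fits with fewer samples have less power, and the shares of all genes in these refits are not set beside the counts. For the rest the cause was not tested.

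Without scaling, the calls were 6 higher and 5 lower in P2+ against P2- (4 and 6 with TMM), 1 and 7 in P2+ against WT (2 and 6) and 1 and 4 in P2- against WT (2 and 3). The scalings moved the median log2 fold change of all genes by less than 0.1. With 1 library left out, Irf1 ranged from -0.18 to 0.70 in P2+ against P2- and from -0.40 to 0.48 in P2- against WT, and Stat2 from -0.12 to 0.092 in P2- against WT. Signs that changed were all of values not called with all libraries: Irf1 in P2+ against P2- (-0.18 without P2- replicate 1, -0.14 without P2- replicate 3, -0.15 without P2+ replicate 2), in P2- against WT (-0.40 without P2- replicate 2) and in KO against WT (0.16 without KO replicate 2), and Stat2 in P2- against WT (-0.039 without scaling, -0.00395 with all 12 libraries, -0.02 without WT replicate 2, -0.12 without P2- replicate 3). The score's differences moved by less than the SD between libraries, pooled over both groups (0.175, 0.0839, 0.163 and 0.0941 in the order below), but 1 changed sign (P2- against WT) and 1 came near 0 (P2+ against P2-, without P2- replicate 3). They ranged between -0.22 and -0.03 in P2+ against P2-, -0.22 and -0.12 in P2+ against WT, -0.13 and 0.07 in P2- against WT and 0.13 and 0.25 in KO against WT. Depth limits Ifit3, Mx1 and Mx2, which had few counts in each library.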
